A study of Mus musculus with 8 samples.

Results

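Committed erythroid progenitors are the cells of the red cell lineage that have switched on the genes of the future erythrocyte but do not yet make much hemoglobin. In the single cell RNA-seq of KL cells (c-Kit+Lin- bone marrow cells), they were taken as every cell with at least 1 UMI of Klf1, at least 1 UMI of Ermap, at least 3 UMIs of Car1 and at most 2 UMIs of Pf4, where a UMI (unique molecular identifier) stands for 1 captured transcript. The rule found 3946 of 29891 cells (13.2%). Klf1, Ermap, Car1 and Pf4 thus chose the cells, and their levels are given as a description only.

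The cells came from bone marrow of female B6 mice aged 3 to 4 months. CVT mice had been co-housed in a conventional facility for 1 month, while SPF mice had stayed under specific pathogen-free conditions. Each housing group had 10 mice in 4 pools of 2 or 3 mice, so a pool is an average over animals. The labels give no genetic change or drug in either group. Cells were tied to pools by the number that ends the cell name, p-values measure the spread between pools, and results by housing depend on this tie. Pools 1, 2, 7 and 8 were SPF and pools 3, 4, 5 and 6 were CVT, and pools 1 to 4 held the mice numbered 1 to 10 while pools 5 to 8 held those numbered 11 to 20. The sort removed cells with the lineage markers CD3, CD4, CD8, CD45R, CD11b, TER119 and GR1 on the surface, so late erythroid cells, which carry TER119, and mature granulocytes should have been left out.

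Erythroid commitment is driven by Gata1 and Klf1, transcription factors that raise the genes for hemoglobin, heme synthesis, the red cell membrane and its skeleton, and that shut off genes of earlier progenitors such as Gata2. Survival of the committed cells depends on erythropoietin, which binds the receptor Epor and signals through Jak2 and Stat5. Ermap encodes a red cell membrane protein that carries the Scianna blood group, and Car1 and Car2 encode carbonic anhydrases, the enzymes that let red cells carry carbon dioxide as bicarbonate. Pf4 encodes platelet factor 4 and marks megakaryocytes, the sister lineage. The committed cells divide fast before they take up globin synthesis in full.

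The promoters of the marker genes are shown because Klf1 binds CACCC and Gata1 binds GATA motifs in such stretches. RefSeq (build GRCm38.p6) held an entry for 4 of the 5 marker genes, and Car1 was without one. The windows run from 250 to 71 bases before the RefSeq start, 5′ to 3′ on the strand of the gene, in lower case, with CACCC and AGATAA in capitals where they occur on either strand. The windows lie at chr8:84901732-84901911 (plus strand), chr4:119190066-119190245 (minus strand), chr6:55336049-55336228 (plus strand) and chr9:21963647-21963826 (minus strand).
Klf1: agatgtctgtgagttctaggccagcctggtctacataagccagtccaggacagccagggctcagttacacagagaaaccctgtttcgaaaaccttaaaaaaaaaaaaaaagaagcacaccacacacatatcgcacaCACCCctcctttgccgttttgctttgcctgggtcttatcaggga
Ermap: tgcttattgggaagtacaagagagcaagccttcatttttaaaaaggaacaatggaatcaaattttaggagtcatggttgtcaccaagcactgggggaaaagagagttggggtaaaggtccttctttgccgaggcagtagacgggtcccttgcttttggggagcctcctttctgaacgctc
Aqp1: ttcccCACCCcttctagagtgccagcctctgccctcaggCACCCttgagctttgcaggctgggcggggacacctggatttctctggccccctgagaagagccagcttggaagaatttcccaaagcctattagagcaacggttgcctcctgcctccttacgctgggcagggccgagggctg
Epor: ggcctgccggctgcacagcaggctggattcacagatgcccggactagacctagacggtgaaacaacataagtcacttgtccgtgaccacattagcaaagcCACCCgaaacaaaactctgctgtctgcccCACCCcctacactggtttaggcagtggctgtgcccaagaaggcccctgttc
CACCC was found 1 time in the window of Klf1, 2 times in that of Aqp1 and 2 times in that of Epor, and AGATAA in none of the 4. Other forms of the GATA motif were not sought, so the windows may hold some. That of Klf1, for example, has ttatca near its end, which reads TGATAA on the other strand. Among all 32851 windows of this length, 40.8% held CACCC, 7.73% held AGATAA and 2.38% held both. The 2 motifs cannot share bases. Of the 30 genes that led the committed cells by fold over all other cells, 21 had a RefSeq entry. Of their 31 windows 58.1% held CACCC, 6.45% held AGATAA and 6.45% held both.

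Between 138 (SPF pool 7) and 906 (CVT pool 3) committed cells came from a pool, with 2351165 to 17543252 UMIs per pool in all. Their median was 19472 UMIs per cell, against 8192 in the other cells, and a rule that asks for UMIs of 3 genes favours deep cells. Shares of cells are therefore also given after each cell was thinned at random to 2759 UMIs, the smallest total of any cell. Levels are given as CPM, the UMIs of a gene per 1000000 UMIs of all genes, summed over the cells of a pool. A ± marks the SD around the mean of the 8 pools unless another n is given. Of the cell barcodes, 522 occurred in more than 1 pool, and 139 committed cells carried such a barcode. Scrublet marked 92 of all cells as doublets (0.308%), too few for it to have worked, so doublets were not removed. No pool was a copy of another of its housing group (chi-square per degree of freedom of at least 2.52). Pools of different groups were not compared in this way.

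The 2 markers outside the rule went with the name of the cells. Aqp1, a water channel of the red cell membrane, had a UMI in 97.0% of the committed cells, and Epor in 69.4%. After thinning, the shares were 59.2% for Aqp1 and 19.6% for Epor, against 3.09% and 0.361% in 4433 granulocyte-monocyte progenitors. The latter served as background and were taken as cells with at least 5 UMIs of Mpo and none of Klf1, Ermap or Car1, and are called Mpo cells here. Aqp1 stood at 327 ± 31.1 CPM (SD, n = 8) in the committed cells, with 365, 338, 356, 351, 281, 288, 322 and 315 in pools 1 to 8. Epor stood at 82.9 ± 11.3, with 80.6, 86.3, 89.9, 97.0, 75.9, 82.9, 59.97 and 90.6, so that SPF pool 7 was the lowest and CVT pool 4 the highest. In Mpo cells Aqp1 was at 10.3 ± 3.86 and Epor at 1.18 ± 0.509, and every pool of committed cells lay above its Mpo cells for both genes. Of all genes tested, 36.0% lay above and 26.5% below the Mpo cells in all 8 pools.

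The thresholds cut through a continuum. The 27 cells with 3 Car1 UMIs, just inside, had Aqp1 at 287 and Gata1 at 105 CPM, and the 28 cells with 2, just outside, had 242 and 121. The largest step was at Ermap, where 2707 cells met the rest of the rule without an Ermap UMI. These had a median of 6292 UMIs, against 10330 in the 928 cells with a single one, and Gata2 at 247 against 121 CPM. Another 306 cells failed only at Klf1 and 20 only at Pf4.

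The committed cells were next set beside all other KL cells. Of the 30 leading genes, all with at least 20 CPM in the committed cells, Tmem56 came first with 22.3 against 0.635 CPM in the other cells. Sphk1, the kinase that makes sphingosine 1-phosphate, followed with 146 against 4.36. Rhd, of the Rh blood group, was at 159 against 5.6, and its partner Rhag at 45.4 against 2.02. Pklr, the pyruvate kinase of red cells and liver, reached 39.6 against 1.43. The metallothionein Mt2 was at 504 against 20.1, and Cldn13 at 106 against 3.86. All 30 lay above the other cells in 8 of 8 pools. These values describe cells that were chosen by 4 of their own genes, and no test was made of them.

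To set the committed cells beside cells with Klf1 but without Ermap, 429 cells with a UMI of Klf1 and of Gata1, no Ermap, at most 2 UMIs of Car1 and of Pf4 and at most 2 of Mpo were used. They are called Klf1 and Gata1 cells, and their Gata1 and Mpo levels are set by this choice. The committed cells lay above them in all 8 pools for 15% of the 10358 genes tested later, and below them in all 8 pools for 16.2%. SPF pool 1 gave only 33 of these cells, so their levels are less precise than those of the committed cells. They also held markers of other lineages, since the median ratio of committed over Klf1 and Gata1 cells was 0.0256 for basophil and mast cell, 0.13 for megakaryocyte and 0.483 for granulocyte and monocyte genes, and it was 0.669 for globins. The part of cells of other lineages in this comparison was not tested. The plot of marker levels shows the 3 sets of cells side by side.

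**Figure D1:**
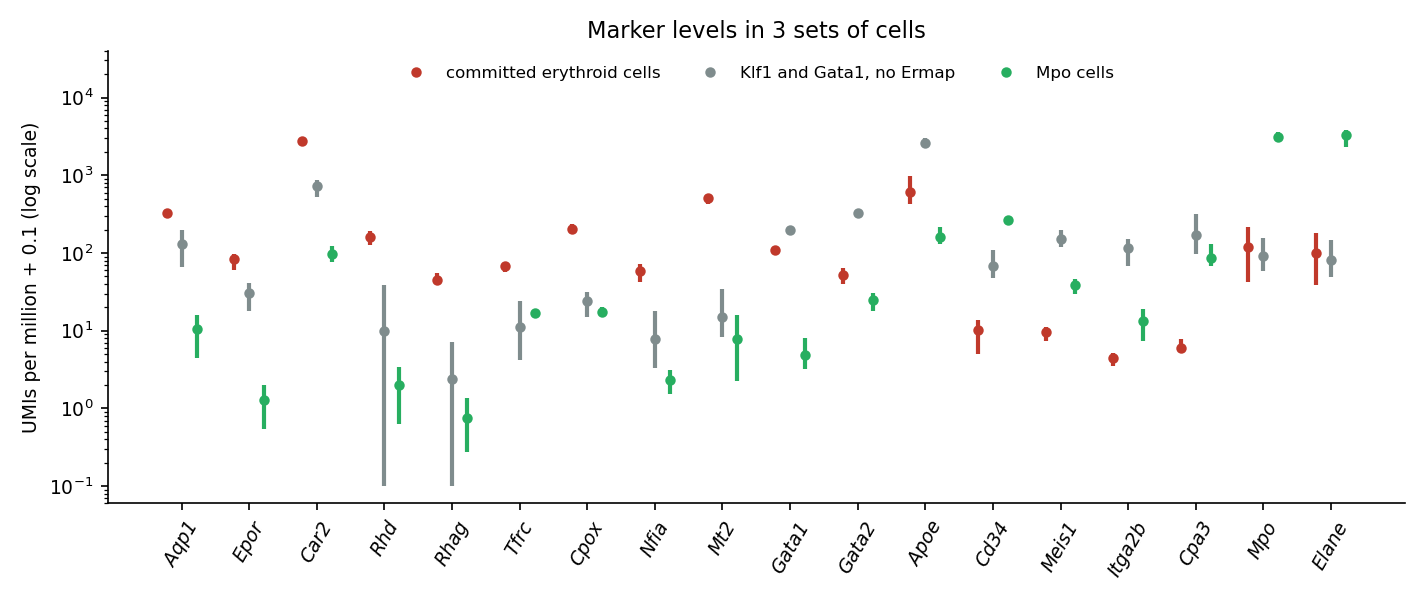
Levels of 18 genes (x axis) in committed erythroid cells (red), Klf1 and Gata1 cells (grey) and Mpo cells (green), as CPM plus 0.1 on a log axis. Points are means over 8 pools and lines run from the lowest to the highest pool. Aqp1, Epor, Car2, Rhag, Cpox and Mt2 were highest in the committed cells, and Gata2, Apoe, Meis1 and Itga2b in the Klf1 and Gata1 cells.

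Of the red cell membrane and skeleton, 12 of the 22 genes that passed the filter on low counts lay above the Klf1 and Gata1 cells in all 8 pools, and 0 lay below. Over all genes tested the shares were 15% and 16.2%. Add2, the beta subunit of adducin, which caps actin in the skeleton, was at 53.7 ± 9.29 against 2.83 ± 2.81 CPM. Rhag was at 45.4 ± 4.9 against 2.3 ± 2.42. Ank1, the ankyrin that ties the membrane to spectrin, was at 26.6 ± 4.03 against 4.39 ± 5.1, and Sptb, the beta spectrin of red cells, was at 10.3 ± 1.2 against 0 in every pool. Cd47, the signal that protects cells from macrophages, went the other way at 451 ± 28.8 against 580.3 ± 71.01, below in 7 of 8 pools. The genes that complete the membrane late were near 0. Slc4a1, the band 3 anion exchanger, had a UMI in 1.88% of the committed cells, and Epb42 in 6.28%.

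Genes for the middle and late steps of heme synthesis were higher in the committed cells, while the gene for its first erythroid step was near 0. Of 9 genes, 7 lay above the Klf1 and Gata1 cells in all 8 pools, as did 15% of all genes tested. Cpox, which acts in the mitochondrion, was at 205 ± 18.2 against 23.8 ± 6.25 CPM and Fech, which inserts iron, at 53.3 ± 6.86 against 16.04 ± 7.8. Alas2, the first and rate-limiting enzyme of heme synthesis in red cells, had a UMI in 2.38% of the committed cells. The ubiquitous Alas1 was at 15.2 ± 2.54, against 136 ± 18.3 in Mpo cells. For iron, 7 of 13 genes lay above in all 8 pools. Tfrc, the transferrin receptor that takes iron up, was at 67.3 ± 5.65 against 11.01 ± 7.67, and Slc25a38, which carries glycine for heme into mitochondria, at 42.0 ± 4.68 against 11.5 ± 5.99. Blvrb was at 861 ± 46.5 against 196 ± 17.7. Fth1, the ferritin heavy chain that stores iron, was at 2696 ± 171 against 1335 ± 127.

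Car2, the carbonic anhydrase outside the rule, was at 2796 ± 236 CPM, with 2977, 2977, 3002, 2874, 2477, 2666, 2436 and 2959.7 in pools 1 to 8, and at 738 ± 110.0 in the Klf1 and Gata1 cells. SPF pool 7 was the lowest of its group, away from the other 3 SPF pools. After thinning, 95.2% of the committed cells had a Car2 UMI and 22.1% of the Mpo cells. Car1 itself had a median of 59 UMIs per committed cell, and a highest of 348. Among the redox genes, Prdx2, a peroxidase abundant in red cells, was at 1006 ± 63.7 against 463 ± 65.4 in the Klf1 and Gata1 cells. The metallothioneins Mt1 and Mt2, which bind zinc and copper, were at 920.2 ± 68.3 and 504 ± 57.6 against 119.8 ± 32.2 and 15 ± 8.7.

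Of 24 erythroid transcription factors outside the rule, 4 lay above the Klf1 and Gata1 cells in all 8 pools and 8 lay below. Over all genes tested the shares were 15% and 16.2%, so the upward count was near the general share. Gata1 is among the 24, and its place was set by the choice of the comparison cells. Nfia was at 58.3 ± 10.99 against 7.71 ± 4.96 CPM, Klf3, a repressor that Klf1 switches on, at 55.4 ± 5.52 against 16.6 ± 7.88, E2f4, needed for fast division of erythroid cells, at 127 ± 13.7 against 44.6 ± 7.01, and Gfi1b at 78.0 ± 7.08 against 46.8 ± 8.3. Nfe2 was at 56.8 ± 6.95 against 159.8 ± 24.9, Cbfa2t3 at 83.6 ± 4.68 against 173 ± 22.2, Myb, which holds progenitors immature, at 215 ± 24.4 against 272 ± 30.9, and Bcl11a, the repressor of embryonic globins, at 184 ± 16.2 against 256 ± 28.2. The early progenitor program was lower throughout. All 12 of its 12 genes lay below the Klf1 and Gata1 cells in all 8 pools. Gata2 was at 51.9 ± 8.89 against 324 ± 23.2, Meis1 at 9.44 ± 1.35 against 151 ± 25.2 and Cd34 at 10.1 ± 2.78 against 68.6 ± 20.5. Apoe, which encodes apolipoprotein E, was at 615 ± 182 against 2568 ± 236, and ranged from 430.2 to 977 over the pools of committed cells.

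Of the signalling genes, Epor was the only 1 of 14 above the Klf1 and Gata1 cells in all 8 pools, at 82.9 ± 11.3 against 30.6 ± 8.41, and 6 lay below. Over all genes tested 15% lay above and 16.2% below, so the upward count did not exceed the general share. Igf1r, the receptor of insulin-like growth factor 1, was at 45.4 ± 6.56 against 138 ± 18.4, Pim1 at 23.4 ± 3.29 against 113 ± 41.5 and Il3ra, a receptor chain for interleukin 3, at 5.02 ± 0.788 against 26.3 ± 9.6. Kit, the receptor by which the cells were sorted, was at 74.3 ± 10.5 against 119.7 ± 34.1, below in 7 of 8 pools. Cish, Socs2 and Socs3, feedback genes of cytokine signalling, and Fam132b, which encodes erythroferrone, were each below 1 CPM on average. Of the interferon and MHC class I genes, 12 of 19 lay below in all 8 pools, among them B2m at 1630.5 ± 158 against 2713 ± 222 and Psmb8, an immunoproteasome subunit, at 206 ± 23.9 against 483 ± 60.2.

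Transcripts of cell division were abundant in the committed cells. Of 21 replication genes 7 lay above the Klf1 and Gata1 cells in all 8 pools, and of 20 mitosis genes 4, with none below. Over all genes tested 15% lay above and 16.2% below, so the upward count of mitosis genes was near the general share. Ccne1, which encodes cyclin E1, was at 64.7 ± 14.1 against 11.7 ± 7.77, Rrm2, which makes deoxynucleotides, at 135 ± 14.1 against 56.8 ± 30.4, and Cenpa, the histone of centromeres, at 289.6 ± 33.0 against 132 ± 38.0. The D cyclins Ccnd2 and Ccnd3 were at 154 ± 17.1 and 66.1 ± 5.09 against 277 ± 43.4 and 125 ± 27.9, and Cdk6 at 229 ± 29.2 against 466 ± 45.2, below in all 8 pools. After thinning, 58.8% ± 7.71 (SD, n = 8) of the committed cells held at least 3 UMIs of the mitosis genes, against 38.0% ± 2.41 of the Mpo cells and 23.2% ± 6.27 of the Klf1 and Gata1 cells. All 3 sets were chosen on UMIs before thinning. Pool medians then were 15437 to 24885 UMIs per committed cell and 11661 to 14157 per Mpo cell. The part of this choice in the shares was not tested. The immediate early genes, which also answer to tissue handling, were low, with Fos at 28.6 ± 12.8 against 278 ± 169 and Jun at 77.4 ± 26.7 against 517 ± 314, whereas the chaperone Hsp90aa1 was at 2228 ± 274 against 1183 ± 168.

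Markers of other lineages were low but for 1 list. Summed over the list, megakaryocyte genes outside the rule ranged from 33.9 to 54.9 CPM in the committed cells, with Gp6 and Clec1b at 0 of 3946 cells, which allows a share of cells with a UMI of up to 0.076% and, since capture is partial, sets no limit on cells that express them. Basophil and mast cell genes ranged from 7.55 to 16.04, and lymphoid genes from 57.2 to 99.5. Of the stem cell markers, Mllt3, which erythroid and megakaryocyte progenitors also use, was at 68.0 ± 7.05 against 25.0 ± 11.1 in the Klf1 and Gata1 cells, while Hlf, Mecom and Procr were at 2.88 ± 0.779, 1.08 ± 0.647 and 0.371 ± 0.2. The 16 granulocyte and monocyte genes summed to 988 to 2864, against 14639 to 22102 in Mpo cells, and 700 committed cells held at least 3 UMIs each of Elane and Mpo, the enzymes of neutrophil granules. Mpo had a UMI in 79.0% of the committed cells, at 121 ± 59.2 CPM. Whether this RNA was free in the droplets, came from doublets or was made in the cells was not tested.

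A small group of committed cells held many globin UMIs. It was found after the globin levels had been seen and holds the 96 cells with at least 100 UMIs over Hbb-bs, Hbb-bt, Hba-a1 and Hba-a2, the adult beta and alpha globins, so its values carry no test. The globin-rich cells held 67.8% to 92.7% of all globin UMIs of the committed cells of a pool. In them Slc4a1 was at 177 against 0.129 CPM in the other committed cells, Alas2 at 125 against 0.373 and Epb42 at 51.9 against 2.76. Gata1 was at 162 against 108, Hemgn at 464 against 62.1, Sox6 at 92.5 against 4.65 and Ccnd3, the cyclin of late erythroid divisions, at 459 against 56.1. Lower in them were Kit at 11.9 against 71.1, Gata2 at 8.65 against 50.9, Myb at 36.2 against 209, Cdk6 at 62.2 against 221, Mt1 at 236 against 928 and Car1 at 2129 against 3593. Each of these differences had the same direction in 8 of 8 pools, as had 6.54% of all genes tested upward and 19.2% downward. Car2 was at 5465 against 2794, so the 2 carbonic anhydrases went opposite ways. Their median of 17984 UMIs per cell was below the 19582 of the other committed cells, and 95.8% against 60.4% held at least 3 mitosis UMIs after thinning. Outside the globin-rich cells, Slc4a1 ranged from 0 to 0.542 CPM over the 8 pools. Over all committed cells a thinned Hbb-bs UMI was found in 16.4%, and in 19.5% of Mpo cells. These shares join all pools, and the mix of pools differs between the 2 kinds of cells. In pools 1 to 4 a globin UMI, without thinning, was found in 43.6% to 57.0% of committed and 17.3% to 28.1% of Mpo cells. In pools 5 to 8 the shares were 92.3% to 96.6% and 89.8% to 96.4%. Outside the globin-rich cells the 4 globins lay above Mpo cells in pools 1 to 4, at 115 to 150.3 against 17.3 to 28.8 CPM, while in pools 5 to 8 the ranges overlapped. Embryonic Hbb-y was at 0 in all committed cells.

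Car1 varied among the committed cells. When the cells of each pool were ranked by the share of their UMIs that was Car1, the lowest of 3 equal parts held 1677 Car1 CPM and the highest 5298. Some genes of earlier cells, of later cells and of other lineages had higher values where Car1 was low, and these cells were shallower, with a median of 15950 UMIs against 22282. Outside the globin-rich cells, Cd34 was at 16.5 CPM in the lowest and 7.03 in the highest part, and Gata2 at 65.2 and 43.4. Ccnd3 was at 67.0 and 46.6 and Hemgn, an erythroid factor, at 68.5 and 52.0, each lower with high Car1 in 8 of 8 pools. Car2 was higher, at 2886 against 2584, in 8 of 8 pools. Over all genes tested, 2.93% were above and 5.99% below in all 8 pools without the globin-rich cells, and 3.79% and 7.04% with them. Of the granulocyte and monocyte genes 5 of 16 were lower with high Car1 in all 8 pools (median ratio 0.53 of the highest over the lowest part), and of the lymphoid genes 3 of 8 (median ratio 0.395). Their part in the differences by Car1 was not tested. Klf1, Epor and Rhd differed little between these parts, at 302 and 304, 82.1 and 82.2, and 148 and 145. Correlations over single cells were weak. With Car1, the highest Spearman value over 3946 thinned cells was 0.18 for Npm1, followed by Ppia (0.15) and Car2 (0.14), and with Ermap it was 0.08 for mt-Co1.

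Whether housing changed how many KL cells were committed erythroid cells was asked first. They made up 18.7%, 17.1%, 9.88% and 11.9% of the cells of CVT pools 3, 4, 5 and 6, and 14.6%, 13.3%, 6.69% and 10.5% of those of SPF pools 1, 2, 7 and 8. The groups overlapped, and in both the pools of mice 11 to 20 were below those of mice 1 to 10. The Wilson 95% interval of counting error ran from 5.69% to 7.85% in SPF pool 7, the lowest, and from 17.6% to 19.8% in CVT pool 3, the highest. The means were 14.4% ± 4.18 for CVT and 11.2% ± 3.49 for SPF mice (SD, n = 4 pools each), a difference of 3.16 percentage points that did not pass the exact permutation test (two-sided p = 0.286, smallest possible 0.0286). Without SPF pool 7 the difference was 1.64 percentage points (exact p = 0.514) and without CVT pool 3 it was 1.72 (exact p = 0.543). Within mice 1 to 10 the CVT mean was 17.9% and the SPF mean 13.9%, and within mice 11 to 20 they were 10.9% and 8.57% (exact permutation test within sets, two-sided p = 0.111, smallest possible 0.0556). With the rule applied to thinned cells, which left 952, the shares were 3.5% ± 0.909 and 2.62% ± 0.925 (exact p = 0.286, and 0.0556 within sets). Among cells with Klf1 and at most 2 Pf4 UMIs, the committed share was 47.3% ± 5.74 in CVT and 39.4% ± 7.21 in SPF mice (exact p = 0.143). A pool's cells were not counted in the marrow, so a lower share and more cells of other types cannot be told apart.

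The share of committed cells with at least 3 mitosis UMIs after thinning was 61.5%, 67.4%, 57.6% and 66.2% in CVT pools 3, 4, 5 and 6, and 54.9%, 59.0%, 42.8% and 61.4% in SPF pools 1, 2, 7 and 8. SPF pool 7, with the fewest cells, was far below the rest, and the other pools of the groups overlapped. The means were 63.2% ± 4.51 and 54.5% ± 8.29 (p = 0.114 by the same two-sided exact test, and 0.167 within sets, where the means were 64.4% against 57.0% for mice 1 to 10 and 61.9% against 52.1% for mice 11 to 20). When SPF pool 7 was left out, the difference fell from 8.64 to 4.72 percentage points (exact p = 0.2). The plot of shares by pool shows these values.

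**Figure D2:**
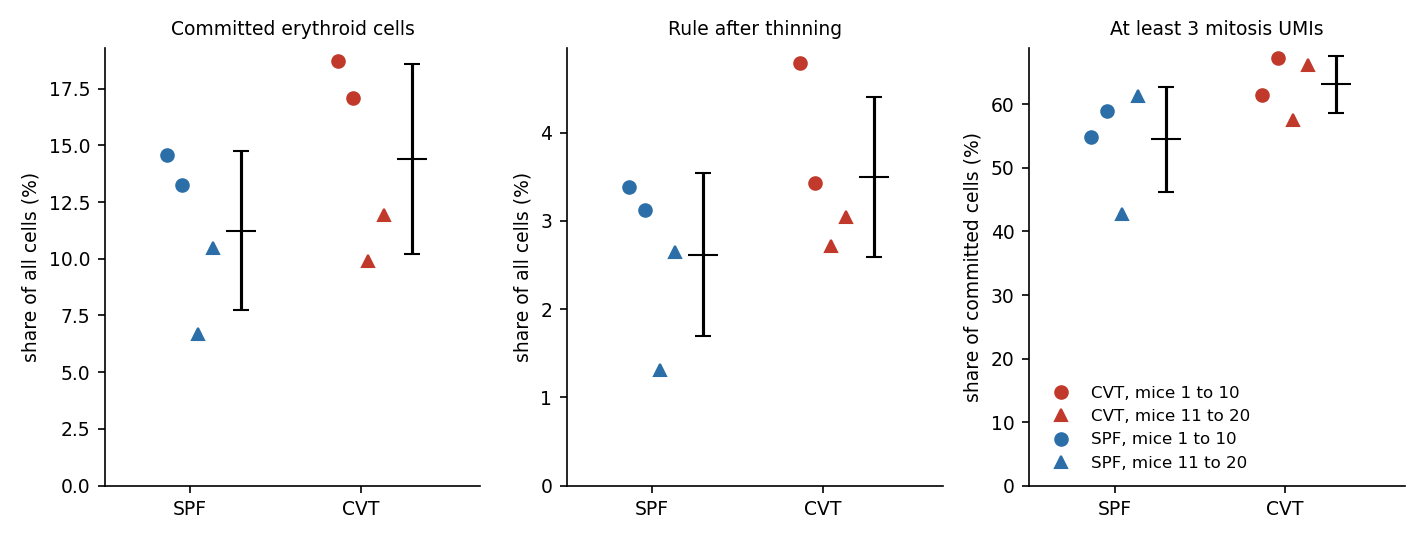
Share of committed erythroid cells among all cells of a pool (left), the same after thinning each cell to 2759 UMIs (middle), and share of committed cells with at least 3 mitosis UMIs (right), all in percent. Points are pools (circles, mice 1 to 10; triangles, mice 11 to 20; blue, SPF; red, CVT) and bars are mean and SD over 4 pools. The groups overlap in all 3 panels, and SPF pool 7 is the lowest point in each.

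Gene expression was then compared between CVT and SPF pools over the summed UMIs of the committed cells. Of 10358 genes, 0 rose and 0 fell under CVT housing at an adjusted p of 0.05 (edgeR's quasi-likelihood test, 0.0% and 0.0%). At an unadjusted p under 0.05 the counts were 178 (1.72%) and 250 (2.41%), and DESeq2 called 1 gene higher and 0 lower. The pools of the groups did not overlap for 119 genes higher in CVT (1.15%) and 177 lower (1.71%). The gene with the smallest p was Gm26917, a long noncoding transcript, at 183, 209, 209.7 and 179 CPM in CVT pools 3, 4, 5 and 6 and 148, 160.4, 139.5 and 145 in SPF pools 1, 2, 7 and 8. Every CVT pool lay above every SPF pool, and the gene passed in DESeq2 (adjusted p = 0.00437) and in edgeR without the filter on low counts (adjusted p = 0.0122), but not in edgeR with it (log2 fold change 0.41, SE 0.07, unadjusted p = 4.97e-05, adjusted p = 0.515). The next genes toward CVT were Ehd3, Rasa4, Cfp and Ly6c2, with log2 fold changes of 1.27, 0.76, 1.10 and 0.65, of which Cfp (properdin) and Ly6c2 are genes of myeloid cells. Toward SPF they were Cd63, Akr1c13, Gm15658, 5430427O19Rik and H2-Oa. Cd63, a tetraspanin of late endosomes and granules, was at 63.4, 50.2, 59.0 and 49.4 in the CVT pools and 69.3, 74.9, 83.8 and 70.3 in the SPF pools, again without overlap (log2 fold change -0.40, SE 0.09, unadjusted p = 5.39e-04).

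The genes of the rule and the other markers were near even between the groups. Klf1 was at 302 ± 12.8 CPM in CVT and 318 ± 9.77 in SPF mice, Ermap at 199.5 ± 11.5 and 198 ± 21.0, and Car1 at 3509 ± 180.1 and 3504 ± 169.7. Aqp1 (log2 fold change -0.06, SE 0.08), Epor (0.11, SE 0.10) and Car2 (-0.03, SE 0.07) did not pass. Of the 9 heme synthesis genes 0 had an unadjusted p under 0.05 upward and 1 downward, which was Uros (log2 fold change -0.33, SE 0.11, unadjusted p = 0.00961). Of 22 membrane genes 3 did so upward, Gypc, Ank1 and Tspan33 (log2 fold changes 0.21, 0.27 and 0.22), and 1 downward. Of 24 transcription factors the count was 0 upward and 1 downward (Nfe2, -0.21), and of 14 signalling genes 0 and 1 (Kit, -0.24). Over all genes tested, 1.72% had an unadjusted p under 0.05 upward and 2.41% downward. None of these passed after adjustment.

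Outside the red cell genes, the early progenitor genes had 0 of 12 upward and 2 downward, Apoe and Muc13. The shares over all genes tested were 1.72% upward and 2.41% downward. Apoe was at 582, 444, 525 and 430.2 in CVT pools 3, 4, 5 and 6 and 674, 748, 977 and 538 in SPF pools 1, 2, 7 and 8, where CVT pool 3 lay above SPF pool 8 and SPF pool 7 was the highest (log2 fold change -0.56, SE 0.14, unadjusted p = 0.0015, adjusted p = 1). The interferon and MHC class I genes were lower in CVT mice for all but 1 of 19, with a median log2 fold change of -0.17 against -0.00198 over all genes. Of all 10354 genes tested outside the rule, 5100 were higher in CVT mice. Summed, the list ranged from 2895 to 3347 CPM in CVT and from 3054 to 3750 in SPF pools, so the groups overlapped. In Mpo cells its means were 5458 and 5684. An unadjusted p under 0.05 was found for 4 of its genes, Ifit1, Isg15, Ifitm1 and Usp18. Ifitm1 was highest in SPF pool 8, at 257 against 81.6, 109 and 102 in the other SPF pools, and Ifit1 in SPF pool 1, at 12.1 against 3.78, 3.83 and 1.39. The mitosis genes were higher in CVT mice for 17 of 20, with a median log2 fold change of 0.14 and 3 with an unadjusted p under 0.05, Ccna2, Plk1 and Ube2c. The replication genes had 0 and 0 of 21, and the median was 0.03. Ccnd1, a D cyclin, was at 5.81, 3.49, 2.72 and 2.7 in the CVT and 18.9, 12.6, 10.2 and 2.18 in the SPF pools (log2 fold change -1.38, SE 0.43, unadjusted p = 0.00572), with SPF pool 8 below all CVT pools. The heat shock gene Hspa1a was at 41.9, 72.0, 19.1 and 4.87 in the CVT and 4.37, 16.2, 8.51 and 12.5 in the SPF pools, so CVT pools 3 and 4 alone were high. Hspa1b, a near-identical copy that can share its reads, was the other heat shock gene with an unadjusted p under 0.05. In the remaining lists such genes were Ccnd2 (lower) and, in the lists of other lineages, Gp9 (lower) and Dntt (higher). There were 0 of the iron genes, 0 of the globins and 0 of the redox genes. The ribosomal protein genes had 2 (Rplp1 and Rps12, both higher) and the mitochondrial genes 1 (mt-Co2, higher). The plot of housing differences by list shows them all.

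Of the granulocyte and monocyte genes, 8 of 16 had a higher value in the committed cells of CVT mice, with a median log2 fold change of -0.03. An unadjusted p under 0.05 was found for 5 toward CVT, Mpo, Prtn3, Ctsg, Ms4a3 and Csf1r, and 0 toward SPF, and none passed after adjustment. The shares over all genes tested were 1.72% toward CVT and 2.41% toward SPF. Mpo was at 215, 188, 107 and 110.1 CPM in the CVT pools and 54.2, 129, 41.7 and 119 in the SPF pools, and the groups overlapped (log2 fold change 0.80, SE 0.28, unadjusted p = 0.0123). Summed over the list of 16 genes, the committed cells ranged from 988 to 2864 in CVT and from 1118 to 2642 in SPF pools. Mpo cells made up 10.5% to 17.7% of the cells of CVT pools and 12.8% to 18.8% of those of SPF pools. The part of such cells in the housing differences was not tested.

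**Figure D3:**
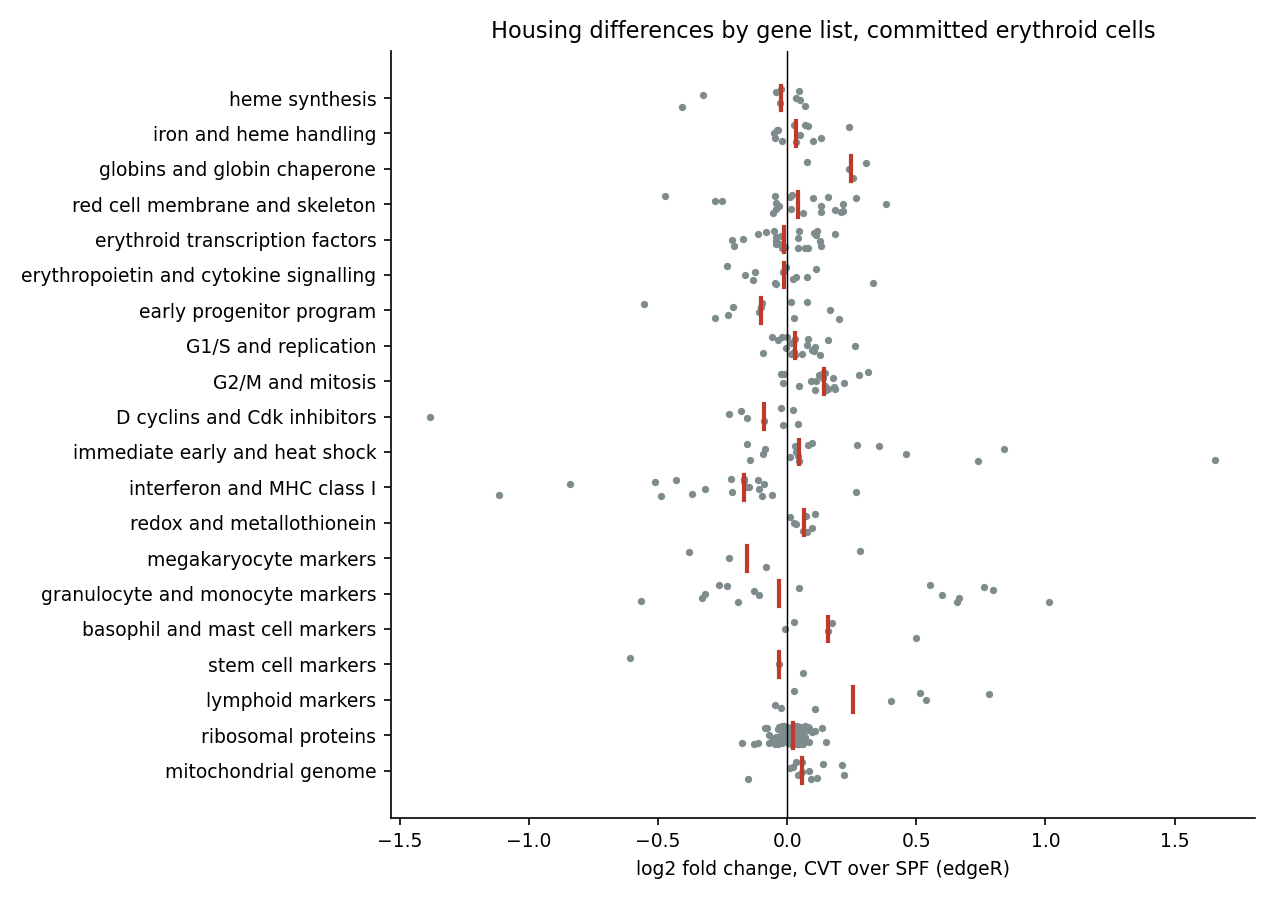
Log2 fold change between CVT and SPF mice (x axis, positive is higher in CVT) for every gene of 20 lists that passed the filter on low counts in the committed erythroid cells. Each grey point is a gene, and the red bar is the median of its list. No gene passed an adjusted p of 0.05, and the medians lie between -0.17 and 0.26.

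The housing effect in the committed cells was next compared with that in 2003 other cells. These held Klf1 but no Ermap and at most 2 UMIs of Car1 and of Pf4. They are called less mature cells by this choice, but were a mixed set. These cells held much granulocyte RNA, with Mpo at 1678 and Elane at 1685 CPM against 121 and 98.7 in the committed cells. Their summed globins were below those of the committed cells in pools 1 to 5, and above in pools 6, 7 and 8. There they were at 7350, 8215 and 4291 against 3370, 3676 and 2695 CPM. A single cell held 93.1%, 56.3%, 86.7% and 92.2% of these globin UMIs in pools 5 to 8. The part of such cells in the comparison was not tested. In a fit with the pool as a block, 0 of 10321 genes had a larger CVT to SPF ratio in the committed cells (0.0%) and 2 a smaller one (0.0194%), Gsr, the glutathione reductase, and Lcn2, a neutrophil granule protein. At an unadjusted p under 0.05 the numbers were 278 (2.69%) and 470 (4.55%). Gsr was at 61.6 ± 7.65 CPM in CVT and 61.7 ± 5.64 in SPF committed cells, and at 148 ± 20.4 and 101 ± 23.5 in the less mature cells (interaction -0.63 on the log2 scale, SE 0.11, edgeR adjusted p = 0.047). Against the 429 Klf1 and Gata1 cells with little Mpo, a set chosen after the data had been seen, edgeR called 0 genes in either direction, with 184 (2.12%) and 254 (2.93%) at an unadjusted p under 0.05, and the interaction of Gsr was -0.00412. In the comparison with all less mature cells, leaving out CVT pool 5 gave 19 and 67 genes larger and smaller, and leaving out CVT pool 3, CVT pool 4 or SPF pool 1 gave 0 and 0 each. Without CVT pool 6, SPF pool 2, SPF pool 7 and SPF pool 8 in turn the numbers were 0 and 6, 0 and 4, 0 and 9 and 2 and 9.

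The 2 sets of pools were compared in the same way. Pools of mice 11 to 20 had 43 genes higher (0.415% of those tested) and 7 lower (0.0676%) than those of mice 1 to 10, with the housing group in the fit (edgeR, adjusted p under 0.05). At an unadjusted p under 0.05 these were 9.06% and 7.63%. The counts changed when single pools were left out. Without SPF pool 8 they were 433 and 512, without SPF pool 1 95 and 41, and without CVT pools 3, 4, 5 and 6 in turn 29 and 1, 36 and 1, 26 and 1 and 33 and 0. Without SPF pools 2 and 7 in turn they were 44 and 3 and 31 and 2. The labels say only that the mice had other numbers, and what else set the pools apart is not given. The called genes were also looked up in Mpo cells, without a share over all genes for these counts. Of the 43 higher genes 39 were tested there, 37 had the same sign and 14 were called the same way. All 7 lower genes had the same sign in Mpo cells, and 2 were called the same way.

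Globin genes led. Hbb-bs was at 115, 149, 151 and 177 CPM in pools 1 to 4 and 1548, 1210.2, 1285 and 1066 in pools 5 to 8, without overlap (log2 fold change 3.16, SE 0.10, adjusted p = 6.75e-13). All 4 globins that passed the filter were higher, as were Alas2 (log2 fold change 3.01, SE 0.21, adjusted p = 1.70e-07), Slc4a1 (log2 fold change 2.92, SE 0.21, adjusted p = 2.87e-07), Fn3k (log2 fold change 2.65) and the iron carrier of mitochondria Slc25a37 (0.67). Reads of the near-identical pairs Hba-a1 and Hba-a2 and Hbb-bs and Hbb-bt may be split between copies, so single globins are uncertain. Slc4a1 was at 0.993, 1.29, 1.31 and 1.34 in pools 1 to 4 and 9.18, 11.8, 11.1 and 6.15 in pools 5 to 8. Globin-rich cells were 4, 6, 11, 11, 19, 24, 6 and 15 in pools 1 to 8, which is 1.18% to 1.54% of the committed cells of pools 1 to 4 and 3.16% to 4.8% of those of pools 5 to 8. With the globin-rich cells left out, 28 of the 43 genes were still called, among them Hbb-bs (log2 fold change 2.73), Hbb-bt (1.46) and Hba-a2 (1.76). Hba-a1 fell from 2.64 to 0.70 and lost its call (adjusted p = 0.101), and Slc4a1, Alas2 and Fn3k no longer passed the filter. The 4 globins summed to 115 to 150.3 CPM in these cells of pools 1 to 4 and to 281 to 425 in pools 5 to 8. In Mpo cells, which should make no globin, they summed to 17.3 to 28.8 and 256 to 645. A single cell held 65.3% of the globin UMIs of the Mpo cells in SPF pool 7 and 40.1% in SPF pool 8. The median Mpo cell held 0 globin UMIs in each of pools 1 to 4 and 2 to 4 in pools 5 to 8. The source of this RNA, and its part in the difference among committed cells, was not tested.

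Of the 16 granulocyte and monocyte genes 7 were higher in pools 5 to 8, S100a8, S100a9, Ngp, Camp, Ltf, Retnlg and Lyz2, and 0 were lower. Over all genes tested, 0.415% were called higher and 0.0676% lower. S100a8, a calcium-binding protein of neutrophils, was at 370.1, 416, 257 and 154 in pools 1 to 4 and 1015, 847, 1036 and 881 in pools 5 to 8 (log2 fold change 1.79, SE 0.16, adjusted p = 4.41e-06). Beyond the list, Mmp8, Mmp9 and Cd177 were higher, with log2 fold changes of 2.42, 2.41 and 2.11. The genes of earlier granulocytes did not pass, with Mpo at -0.48 (adjusted p = 0.313), Elane at -0.27 (adjusted p = 0.684) and Prtn3 at -0.23 (adjusted p = 0.653). The list summed to 988 to 1464 CPM for mice 1 to 10 and 2378 to 2864 for mice 11 to 20. Outside the globin-rich cells these ranges were 992 to 1471 and 2417 to 2924. In Mpo cells the same contrast gave S100a8 a log2 fold change of 0.75 (adjusted p = 0.0759) and Hbb-bs one of 4.67 (adjusted p = 3.81e-12).

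The 7 genes lower in mice 11 to 20 were Txnrd3, Mid1, Smpdl3a, Fosb, Copg1, Gm26825 and Hspd1. Hspd1, the mitochondrial chaperonin, was at 823, 883, 945 and 955 CPM in pools 1 to 4 and 701, 674, 639.7 and 799 in pools 5 to 8 (log2 fold change -0.30, SE 0.07, adjusted p = 0.0478). Fosb, an immediate early gene, was at 9.33, 30.2, 32.7 and 37.1 and 14.5, 5.6, 15.7 and 10.6, with SPF pool 1 among the low ones. Of 17 immediate early and heat shock genes, 8 had an unadjusted p under 0.05 downward and 0 upward. Over all genes tested, 7.63% had one downward and 9.06% upward. Of the red cell genes, Slc4a1 included, 9 of 22 membrane genes and 8 of 24 transcription factors had an unadjusted p under 0.05 upward and 1 of each downward (Aqp1 and Lyl1), and 56 of 83 ribosomal protein genes had one upward, with 1 past the adjusted threshold (Rpl36a, log2 fold change 0.23). Among lymphoid markers Ccl5 passed (log2 fold change 1.89). Aqp1 (-0.18, adjusted p = 0.135), Epor (-0.12, adjusted p = 0.548) and Car2 (-0.12, adjusted p = 0.274) did not pass.

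**Figure D4:**
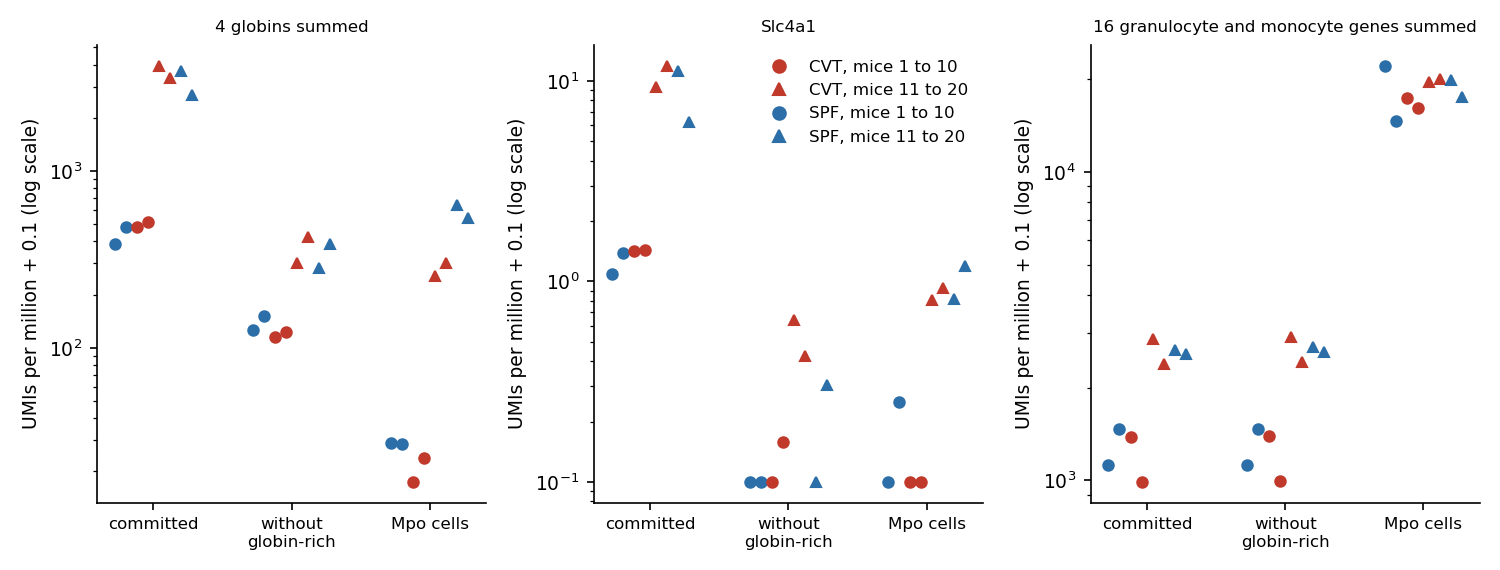
Summed globins (left), Slc4a1 (middle) and 16 granulocyte and monocyte genes summed (right) in the committed erythroid cells, the same without the globin-rich cells, and Mpo cells, as CPM plus 0.1 on a log axis. Each point is a pool (circles, mice 1 to 10; triangles, mice 11 to 20; blue, SPF; red, CVT). In the committed cells globins lie between 387 and 518 in pools of mice 1 to 10 and between 2695 and 3949 in those of mice 11 to 20, and Slc4a1 falls to near 0 without the globin-rich cells.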

How the data were processed

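Sorted KL cells of 20 mice in 8 pools were sequenced by the 10x Genomics 3′ method (version 2 kit). The authors made UMI counts per gene and cell with Cell Ranger and deposited them without normalization (build mm9 in the submitters' processing notes, Cell Ranger version not given in the sources used here). Each cell was assigned to a pool by the number that ends its name, matched to the number in the sample description, and cell numbers alone do not fix this match. The committed cells and the gene lists were chosen with earlier results of these data known. UMIs were summed per pool and tested with edgeR 4.0.16 (quasi-likelihood, TMM, filterByExpr, Benjamini-Hochberg over all genes tested), with DESeq2 1.42.0 as an alternative (Python 3.11.15, scanpy 1.11.5, numpy 2.4.6, R 4.3.3). For shares, all 70 regroupings of the pools gave an exact two-sided permutation p. The pool was the replicate, and 19041749 to 59812346 UMIs per pool set the precision. Intervals cover counting error only. Genes named were those of the lists, and by contrast the 10 largest changes each way among calls whose pools did not overlap, or the 5 smallest p-values each way where fewer than 10 passed. Other genes named were chosen after their values were seen. On simulated data, edgeR recovered 89.5% of 200 genes changed by a factor of 2 for housing, 94% for pool sets and 62% for the interaction. Of 193, 202 and 132 calls, 14, 14 and 8 were false. The simulated pools for housing and the interaction held no difference between pool sets. Simulated less mature cells had the mean levels of the committed cells. Recovery in the real data was therefore not measured and may be lower. Of the list genes, 2 (Flvcr1 and Ahsp) matched no row. A few genes of the lists are not reported here.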

Additional observations from a re-analysis of the deposited data

Results flagged for a closer look

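In SPF pool 7, which gave the fewest committed cells, Car2 was at 2436 CPM, away from 2959.7 to 2977 in the other 3 SPF pools. H2-Oa was at 12.8 in the same pool, against 7.73 to 8.34. Both gaps exceeded Dixon's 95% critical value for 4 samples, 2 of 108 groups of 4 pools examined, where chance gives about 1 in 20.

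The housing effect differed between the committed cells and the less mature cells with Klf1 and without Ermap for Lcn2 (interaction -1.68 on the log2 scale, SE 0.31, edgeR adjusted p = 0.047) and Gsr (-0.63, SE 0.11, adjusted p = 0.047). Lcn2 was at 16.8, 9.83, 55.0 and 40.7 CPM in the committed cells of CVT pools 3, 4, 5 and 6 and 25.2, 24.8, 72.3 and 55.1 in SPF pools 1, 2, 7 and 8. In the less mature cells it was at 407, 188, 489 and 388 and 162, 35.8, 554 and 267, with SPF pool 2 far below the rest. Gsr was at 70.5, 64.5, 52.5 and 59.0 in the CVT and 61.2, 66.9, 54.0 and 64.7 in the SPF pools of committed cells, and at 171, 159, 127 and 136 and 81.4, 95.9, 90.6 and 135 in the less mature cells. Against the Klf1 and Gata1 cells with little Mpo the interactions were -0.04 for Lcn2 and -0.00412 for Gsr (adjusted p = 1 for both). Both calls were also lost with RLE factors, with doublets removed and without CVT pool 3, CVT pool 4 or SPF pool 1, that of Lcn2 without SPF pool 8 and that of Gsr without SPF pool 2. The part of granulocyte RNA in the less mature cells was not tested for either gene.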

How the results depend on the processing

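The difference in the share of committed cells stayed positive under every alternative run and did not pass in those whose test could, which were a Car1 minimum of 2 or 5 UMIs, no Pf4 UMI, a filter on cells, Scrublet's doublets removed, the rule after thinning, Klf1 cells as denominator and each pool left out. The difference in the share of cells with mitosis UMIs also stayed positive and short of the threshold under its alternatives (1.64 to 4.66 and 4.72 to 10.9 percentage points with 1 pool left out). Regroupings within pool sets cannot go below 0.0556, the value the thinned share gave, with every CVT pool above every SPF pool of its set. No alternative reversed a named gene. The number of genes higher in CVT was 1 with DESeq2, 1 with Pf4 at 0 and 5 with every gene of at least 1 UMI, which also gave 4 lower; with 1 pool left out the numbers were 0 to 0 higher and 0 to 1 lower. A block for the pool set gave 0 and 0. Between pool sets, every gene of at least 1 UMI gave 232 higher and 229 lower, DESeq2 13 lower and leaving out the globin-rich cells, chosen after seeing the data, 28 higher; with 1 pool left out the ranges were 26 to 433 and 0 to 512. For the comparison with less mature cells, every gene of at least 1 UMI gave 13 higher and 52 lower, the filter on cells 9 lower, and RLE factors, doublets removed and the Klf1 and Gata1 cells 0 lower each; with 1 pool left out the ranges were 0 to 19 and 0 to 67. The causes were not tested. Of 230 alternative values of 16 genes named for the pool sets, 44 lost their call. No paired analysis was possible because the pool numbers are not shared between the groups. With 4 pools a group, a share needs complete separation to reach the smallest p, and depth limits Slc4a1, Alas2 and Fn3k, which are near 0 outside a few cells.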

Other observations

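Genes with no list of their own also led the committed cells over the other KL cells. Asb17os was at 39.0 against 1.26 CPM, Paqr9 at 39.0 against 1.44, Nxpe2 at 73.7 against 2.94, Slc25a21 at 77.4 against 3.46 and the nonmuscle myosin Myh10 at 40.7 against 1.91, each above in 8 of 8 pools. Smim1, which carries the Vel blood group, was at 135 against 9.24, and the nuclear lamin gene Lmna at 72.2 against 5.06.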
